A study of Macaca fascicularis and Mus musculus with 492 samples.

Results

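The hypoblast cells described here are 54 single cells of cynomolgus monkey preimplantation embryos, 10 of embryonic day 7 (E07), 37 of E08 and 7 of E09, out of 492 samples in the series. They are the opening run of the samples of each of these days in order of deposition (the first 10, 37 and 7), and are called the block below. They were set against the other cells of the same days, 25 of E07, 58 of E08 and 13 of E09, which makes 150 cells in all. The series measured RNA in single cells by SC3-seq, which amplifies the cDNA of a cell and sequences the 3' ends of its transcripts, in monkey embryos of E06 to E17, in embryonic stem cells and in mouse cells. For the monkey preimplantation stages, whole embryos were taken apart with trypsin and each sample is 1 cell. The labels name no genetic change and no treatment for any of the 150 embryo cells, and give neither their cell type, nor their embryo, nor the reason for the order of deposition.

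The hypoblast, or primitive endoderm, is the layer of the late blastocyst that faces the cavity and later lines the yolk sac. It arises beside the epiblast from the inner cell mass, while the trophectoderm forms the outer wall of the blastocyst. GATA and SOX transcription factors specify it, and FGF signalling and the receptor PDGFRA are tied to its formation and survival in mammals. Its cells make basement membrane and secrete lipid-carrying proteins, and a subset at the future anterior side later secretes inhibitors of WNT and NODAL.

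Block cells had 656103 to 4491556 estimated reads (median 1902521), and the other cells 783423 to 4371203 (median 1958947). The median number of genes detected was 10872 in the block and 11141 in the other cells. A Ward tree of the 150 cells, built on expression alone and cut at 3 clusters, returned the block as a cluster of exactly these 54 cells, and no cluster held block and other cells together at any of 12 settings. The order of deposition therefore coincided with expression, and a test of the block against the rest is not independent of the genes tested: differences are given as descriptions, and the calls only say how alike a difference was over the 3 days. The other 96 cells fell into an epiblast-like cluster of 34 cells (5, 24 and 5 on E07, E08 and E09), with 11 of 12 measured epiblast markers elevated, and a trophectoderm-like cluster of 62 cells (20, 34 and 8), with 9 of 11 trophectoderm markers elevated. The clusters were made from the genes described, so differences from them carry no test. In the block 8 of 10 hypoblast markers were elevated, 0 of 12 of the epiblast and 0 of 11 of the trophectoderm. SOX7 and CUBN were the hypoblast markers that were not elevated. The correlation between 2 cells across 12684 genes had a median of 0.765 within the block, 0.698 between block and epiblast-like cells and 0.720 between block and trophectoderm-like cells. The highest correlation of 2 block cells was 0.862, and no values were shared as by a cell deposited in duplicate. Nearly all E08 cells carry the title code MS02 and all E09 cells MS03, so E08 and its code cannot be told apart. E07 is mostly MS03 as well (9 of 10 block and 20 of 25 other cells), and block and other cells of a day share their codes.

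The 5 genes that mark the block, GATA4, SOX17, FOXA2, PDGFRA and APOA1, were high in nearly all its cells and low in most others, in RPM, the reads of a gene scaled to a fixed total per cell. GATA4, a zinc-finger factor of early endoderm, was at 132 RPM in the lowest cell, 430 in the median and 720 in the highest at E07. At E08 the same 3 values were 86.5, 403 and 852, and at E09 they were 215, 397 and 709. In the other cells the medians were 2.00, 1.87 and 2.35 RPM and the highest single value was 32.4. Every block cell was thus above every other cell of E07 to E09 for GATA4.

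PDGFRA, the receptor of platelet-derived growth factor, spanned 154 to 450 RPM at E07 (median 266), 60.4 to 1015 at E08 (median 258) and 174 to 517 at E09 (median 237). The highest other cell had 80.7 RPM, so the groups overlapped only at the edge. SOX17, an SRY-box factor required for endoderm, had medians of 337, 384 and 357 RPM over the 3 days. Its lowest block cell had 0.35 RPM, at E08, and 52 of 54 block cells reached 10 RPM against 4 of 96 others. FOXA2, a forkhead factor of endoderm, had medians of 149, 145 and 160 RPM and was at or above 10 RPM in 53 block cells and 1 other cell. APOA1, the main protein of high-density lipoprotein, had medians of 2018, 3971 and 3195 RPM and ran from 7.27 RPM in a single E08 cell to 12487 RPM at E09. In the other cells its medians were 9.99, 18.9 and 6.27 RPM, and it reached 504 RPM in a trophectoderm-like cell, so APOA1 was less exclusive than GATA4.

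**Figure D1:**
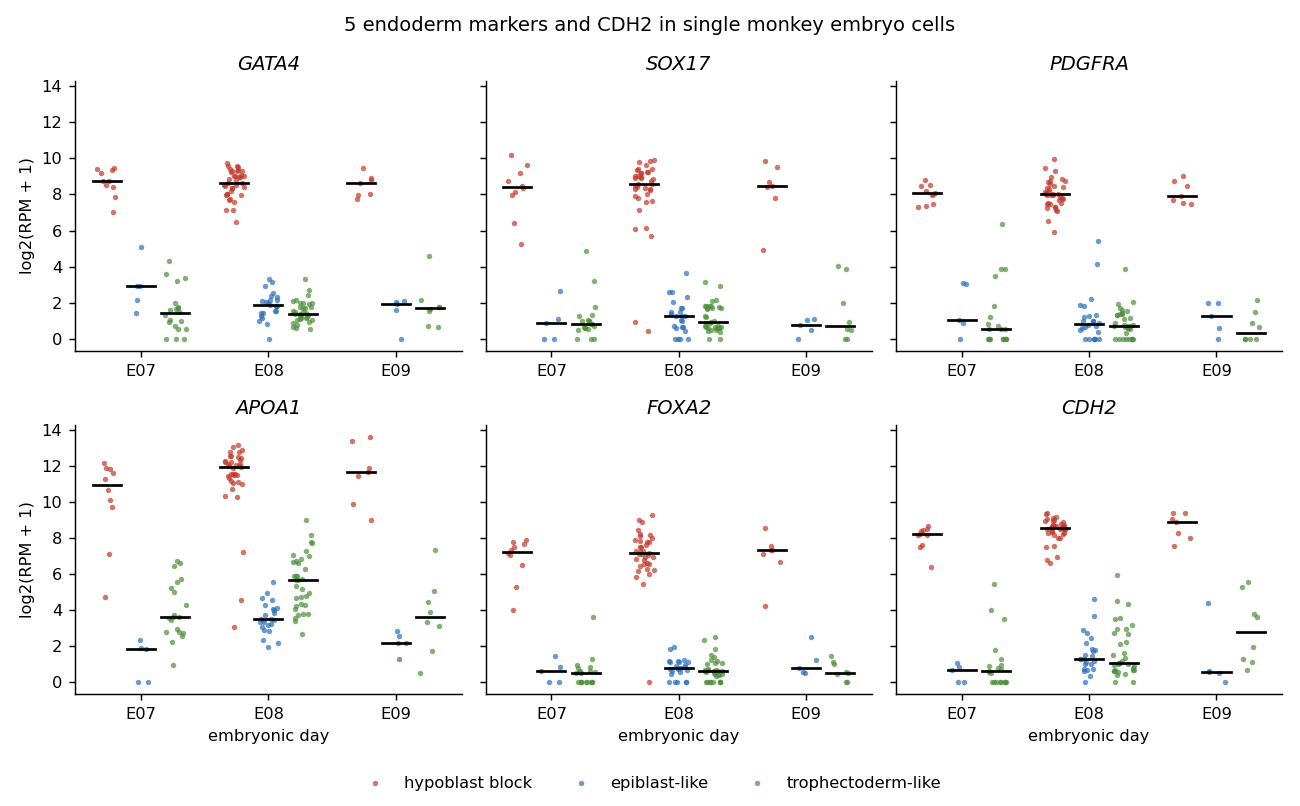
Each point is a single cell, the horizontal axis is the embryonic day and the vertical axis log2(RPM + 1). Black lines are medians of the block (red, 10, 37 and 7 cells), the epiblast-like cells (blue) and the trophectoderm-like cells (green). Block cells of GATA4 and CDH2 lie above all other cells, and a few block cells of SOX17, APOA1 and FOXA2 lie at the level of the others.

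For a comparison across genes, log2(RPM + 1) was averaged over the cells of each day and group, and the difference of the block from the other cells was taken within each day. Values below are the mean difference over E07, E08 and E09 ± SE from limma (n = 3 days), on that scale, which understates the change of low genes. Of 11132 genes tested, 1287 (11.6%) were called higher and 1219 (11%) lower in the block at an adjusted p threshold of 0.05, 22.5% in all. These shares are to be set beside the list counts below. Without E09, the day with the fewest cells, 747 genes were called higher and 628 lower. The median difference over all tested genes was -0.05. A stricter description compared the block with both clusters: 102 genes (0.916%) were higher by at least 2 than the epiblast-like and the trophectoderm-like mean on each day, and 19 (0.171%) were lower. Only 3 genes (0.0269%) had every block cell above every other cell. Besides GATA4 they were SERPINH1, a collagen chaperone (lowest block cell 336 RPM, highest other cell 269.8), and CDH2, N-cadherin (82.3 against 59.5). No gene had every block cell below every other cell. The block mean was above the other mean for all pairs of days in 16.8% of genes and below in 17.4%.

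The 20 genes with the largest differences held transcription factors, signals, matrix and metabolic genes. Among the factors were SOX17 (7.06 ± 0.24), GATA4 (6.87 ± 0.21) and FOXA2 (6.25 ± 0.27). The metabolic genes were GPX2, a glutathione peroxidase of gut-type epithelia (6.96 ± 0.34), and MOGAT2, which makes diacylglycerol in the gut (5.71 ± 0.38). MOGAT2 medians were 245, 159 and 16.8 RPM on the 3 days, and 3 of 7 E09 cells were under 10 RPM.

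Of 20 listed regulators of hypoblast and endoderm, 16 were high enough to test. Of these, 12 were higher in the block and 0 lower, with a median difference of 5.26 against -0.05 for all genes. Over all 20 members, low ones included, the median was 2.71. The list holds the marker genes and was chosen with these data known, so its count is a description. The factors differed in how exclusive they were. GATA6, the earliest GATA factor of the lineage, had a mean log2 level of 9.26 in the block, 8.25 in trophectoderm-like and 2.34 in epiblast-like cells. In cells, GATA6 medians at E07 were 570 RPM in the block and 515 in trophectoderm-like cells, and the ranges overlapped (459 to 1110 and 218 to 784). At E08 its medians stood further apart, at 739 and 310.5 RPM. HNF4A, a nuclear receptor of liver and visceral endoderm, was shared more evenly, with mean log2 levels of 7.15, 5.21 and 4.24 in block, trophectoderm-like and epiblast-like cells. OTX2, a homeobox factor of anterior visceral endoderm and brain, was at 10 RPM or more in 41 of 54 block cells and 8 of 96 others, with a difference of 4.27 ± 0.31. NR5A2, a nuclear receptor, did not pass against the other cells as a whole (0.35 ± 0.30), and its mean log2 level was 5.74 in epiblast-like cells against 3.29 in the block. SOX7, which marks extraembryonic endoderm in the mouse, was at or above 10 RPM in 1 of 54 block cells, with a median of 1.61 RPM. SOX7 reached 166 RPM in a cell of E17, so the table can hold higher values for it.

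Genes of the basement membrane were high in the block, and the members split by which other cells shared them. Of 15 tested, 11 were higher and 1 lower, with a median difference of 1.90. Nidogen 2 (NID2), which links laminin to collagen IV, differed by 7.14 ± 0.12, with medians of 3910, 4752 and 4842 RPM in the block and 11.1, 25.2 and 23.8 RPM in the other cells. Its relative NID1 differed by 5.89 ± 0.27. The collagen IV chains COL4A1 and COL4A2 differed by 6.61 ± 0.17 and 5.58 ± 0.23. COL4A1 medians were 934, 1325 and 1082 RPM in the block and 1.68, 6.80 and 9.22 RPM in the other cells. These 4 genes were low in both other clusters.

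The laminin genes, by contrast, were also high in trophectoderm-like cells. LAMA1, the alpha chain of laminin-111, had a mean log2 level of 9.53 in the block, 9.65 in trophectoderm-like and 3.67 in epiblast-like cells. The levels were 9.70, 9.02 and 5.33 for LAMB1, and 9.77, 9.14 and 6.38 for LAMC1, in the same order. The matrix protein SPARC was shared with the other side: its mean log2 level was 9.98 in the block, 9.52 in epiblast-like and 3.52 in trophectoderm-like cells. SERPINH1 followed the same order at 10.26, 6.27 and 3.17. Fibronectin (FN1) differed by 6.89 ± 0.23, with block medians of 1079, 2283 and 1927 RPM and a lowest block cell of 1.68 RPM at E07. Dystroglycan (DAG1), a laminin receptor, was the member called lower (-1.39 ± 0.14).

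**Figure D2:**
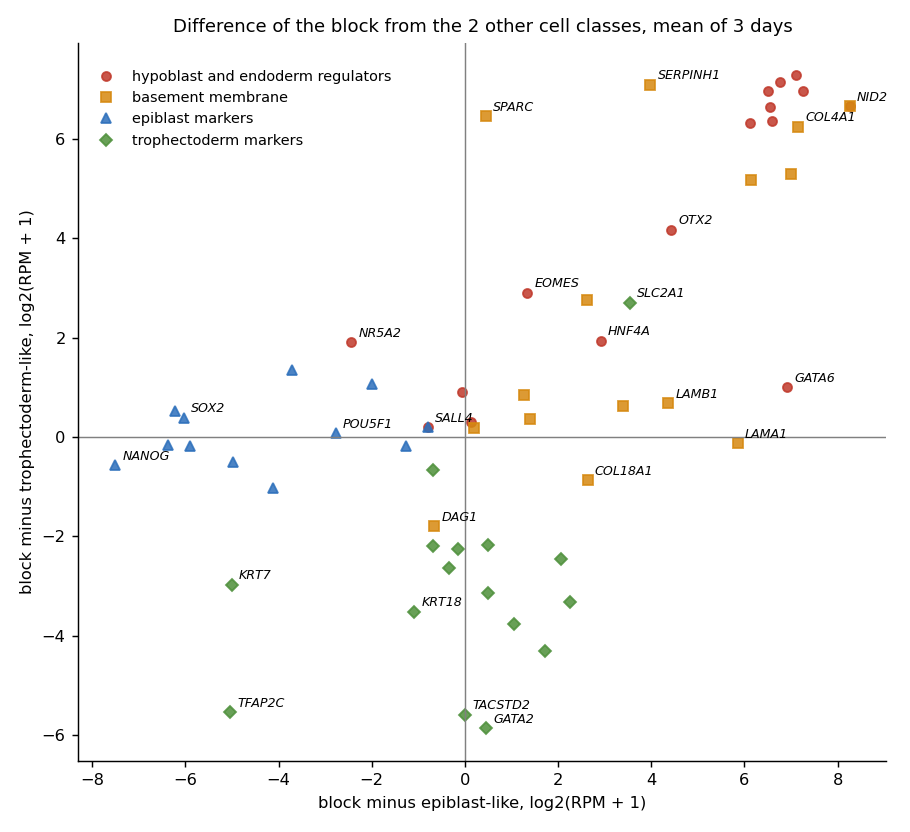
Each point is a tested gene of 4 lists. The horizontal axis is the block minus the epiblast-like mean and the vertical axis the block minus the trophectoderm-like mean, both in log2(RPM + 1) averaged over 3 days. NID2 and COL4A1 lie far to the upper right, LAMA1 on the right near a vertical value of 0, GATA6 slightly higher, and SPARC at the top near a horizontal value of 0.

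Lipid transport genes were high in the block, and most secreted liver-type proteins were low. Of 11 apolipoprotein and lipid transport genes tested, 7 were higher and 0 lower, with a median of 1.84 (1.12 over all 16 measured). Beside APOA1 (7.21 ± 0.32) large differences were those of MTTP, which loads lipid onto apolipoprotein B (5.49 ± 0.31), and the phospholipid transfer protein PLTP (3.22 ± 0.21). MTTP medians were 120, 105 and 120 RPM, and 51 of 54 block cells against 2 of 96 others reached 10 RPM. APOB, the protein that MTTP loads, was too low to test: no block cell reached 10 RPM, and its highest value was 8.65 RPM. APOA2 reached 10 RPM in 2 and APOA4 in 6 of the 54 cells.

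Of 18 secreted liver-type and yolk sac proteins, only FN1 and VTN were high enough to test, and both were higher. Transthyretin (TTR) was at 0 in all 10 cells of E07, reached 10 RPM in 2 of 37 cells of E08 and in 3 of 7 cells of E09, and its highest value was 737 RPM. Alpha-fetoprotein (AFP) reached 10 RPM in 5 of 54 cells, with a highest value of 36.5 RPM. Albumin (ALB) reached 5.82 RPM at most. Of E17 cells, TTR reached 1337 RPM and AFP 220 RPM, so both can be read from this table. A low value does not show absence, since PKM, a glycolytic enzyme in wide use, had a block median of only 3.51 RPM.

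The classical cadherins ran in opposite directions. N-cadherin (CDH2) had block medians of 294, 369 and 471 RPM against 0.557, 1.35 and 1.47 in the other cells, a difference of 6.73 ± 0.23. E-cadherin (CDH1) had block medians of 32.3, 21.2 and 104 RPM against 207, 141 and 235, a difference of -2.35 ± 0.32. The CDH1 ranges overlapped, from 0 to 198 RPM in the block and from 39.8 to 500 in the others, and 41 of 54 block cells reached 10 RPM. P-cadherin (CDH3) was lower too (-4.09 ± 0.32). EPCAM, an epithelial adhesion protein, did not pass (0.17 ± 0.16). Of 18 endocytosis and polarity genes tested, 4 were higher and 7 lower (11.6% and 11% over all genes), with a median of -0.33. Beside CDH2 the higher genes were PARD3, ITGA6 and ITGB1. Endocytic genes known from visceral endoderm were not among them. The adaptor DAB2 was lower (-1.64 ± 0.12), CUBN did not pass (0.18 ± 0.29) and LRP2, megalin, did not pass against the other cells as a whole (-0.55 ± 0.39). LRP2 medians were 153 RPM in the block, 963 in trophectoderm-like and 5.52 in epiblast-like cells.

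The ligands BMP2 and BMP6 were high in the block and low in the other cells. BMP2 had the largest difference of all named genes (7.23 ± 0.37), with medians of 380, 538 and 556 RPM against 0.46, 1.68 and 0.474 in the other cells. It reached 10 RPM in 50 of 54 block cells and 1 of 96 others. BMP6 differed by 6.13 ± 0.30, with block medians of 95.6, 146 and 78 RPM. BMP4 and BMP7 did not pass (0.82 ± 0.31 and 0.43 ± 0.30). Of 14 BMP pathway genes tested, 6 were higher and 1 lower, with a median of 0.78 (0.43 over all 17 measured). ID2, a target of BMP signalling in many cells, was higher (2.97 ± 0.34), with a median of 110 RPM against 6.47 in epiblast-like and 24.8 in trophectoderm-like cells, whereas ID1 and ID3 did not pass (0.73 ± 0.33 and 0.38 ± 0.26). BAMBI, a decoy receptor, was higher (1.84 ± 0.36), and the receptor BMPR1A was lower (-0.82 ± 0.21).

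On the WNT pathway, 5 of 14 tested genes were higher and 1 lower (11.6% and 11% over all genes). The median was 0.51 (0.25 over all 21 measured). RSPO3, a secreted amplifier of WNT signals, differed by 6.61 ± 0.27 and had block medians of 690 RPM at E07, 715 at E08 and 135 at E09. At E09 RSPO3 ran from 1.20 to 1959 RPM between cells. The receptor FZD7 (2.05 ± 0.31) and the secreted antagonists FRZB (2.69 ± 0.28), DKK1 and DKK3 were also higher. FRZB was patchy: 20 of 54 block cells and 0 of 96 others reached 10 RPM, and its highest value was 1317 RPM. The ligand WNT5B was lower (-1.71 ± 0.28), with a mean log2 level of 4.51 in epiblast-like cells and 0.37 in the block.

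For PDGF the receptor was high and its ligands were low, and for IGF1 the ligand was high and its receptor low. PDGFRA differed by 7.02 ± 0.25, while its ligand PDGFA was lower (-3.20 ± 0.35). PDGFA medians over the 3 days together were 0 RPM in the block, 36 in trophectoderm-like and 3.04 in epiblast-like cells. PDGFC, another ligand, was also lower (-1.78 ± 0.29). IGF1 was higher (6.11 ± 0.35), with block medians of 519, 480 and 227 RPM against 1.98, 2.55 and 2.09, while its receptor IGF1R was lower (-1.76 ± 0.33). IGF1R reached 10 RPM in 15 of 54 block, 30 of 34 epiblast-like and 19 of 62 trophectoderm-like cells. The binding protein IGFBP2 was lower (-2.11 ± 0.32).

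The interleukin-6 receptor chains were higher together. IL6R, which binds the cytokine, differed by 6.17 ± 0.23, with block medians of 257, 235 and 343 RPM and a lowest cell of 15.3 RPM. IL6ST, the shared signalling chain, differed by 3.52 ± 0.26, and its medians were 681 RPM in the block, 91.9 in epiblast-like and 36.2 in trophectoderm-like cells. LIFR differed by 4.55 ± 0.55, with block medians of 55.3, 143 and 243 RPM on E07, E08 and E09. STAT3 and SOCS3, a mediator and a feedback target, did not pass (-0.02 ± 0.22 and -1.07 ± 0.37). KIT was higher (1.64 ± 0.39), but not without E09 (1.04). Of 14 tested genes of these pathways, 6 were higher and 4 lower (11.6% and 11% over all genes), with a median of -0.08.

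For FGF, 6 of 14 tested genes were higher and 2 lower (11.6% and 11% over all genes), with a median of 0.93. FGF4, the ligand that drives hypoblast formation in the mouse, was lower (-1.82 ± 0.35): it reached 10 RPM in 31 of 34 epiblast-like, 2 of 62 trophectoderm-like and 2 of 54 block cells. FGFR1 was higher (2.63 ± 0.21), with medians of 372 RPM in the block, 218 in epiblast-like and 41.5 in trophectoderm-like cells. FGFR2 was higher (1.16 ± 0.29) and FGFR3 lower (-1.63 ± 0.18). The feedback genes SPRY1, DUSP4 and SPRED1 and the target ETV5 were higher. ETV4, another target, did not pass (0.26 ± 0.53), and its mean log2 level was 7.74 in epiblast-like cells and 4.23 in the block. DUSP6 was shared with trophectoderm-like cells, at mean log2 levels of 6.72 in the block and 7.27 there.

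Of 12 NODAL pathway genes tested, 2 were higher and 2 lower, with a median of 0.46, which is near the shares over all genes (11.6% and 11%). The receptor ACVR1B (3.50 ± 0.30) and the cofactor FOXH1 (1.02 ± 0.19) were higher. The ligand GDF3 (-2.20 ± 0.39) and the inhibitor SMAD7 (-1.95 ± 0.24) were lower, GDF3 not with 7 cells a unit (-1.09). NODAL itself did not pass (-1.10 ± 0.42), and reached 10 RPM in 6 of 54 block and 32 of 34 epiblast-like cells. Of 5 retinoid genes tested, ALDH1A1, which makes retinoic acid, was higher (5.56 ± 0.33) and CYP26A1, which degrades it, was lower (-1.99 ± 0.54). ALDH1A1 reached 10 RPM in 45 of 54 block cells and 0 of 96 others. Without E07 the CYP26A1 difference was -1.14 and no longer called.

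**Figure D3:**
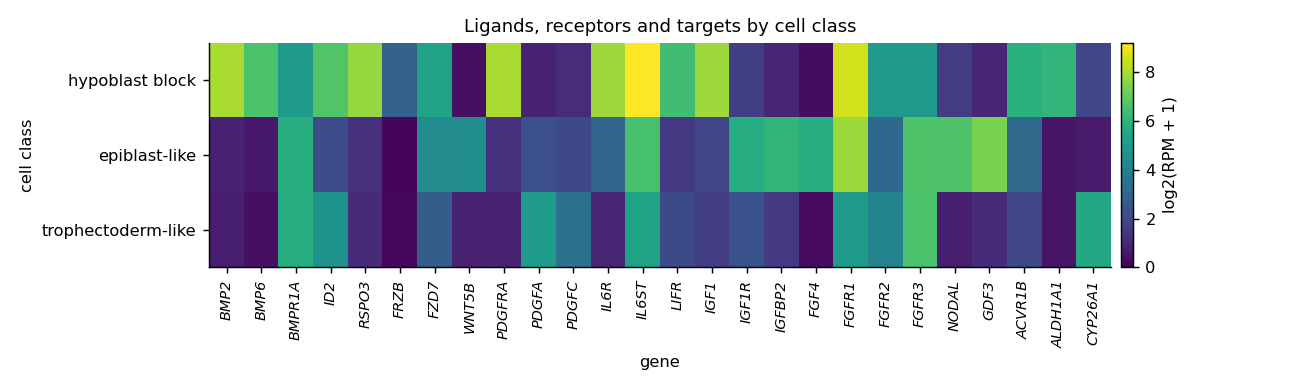
Columns are ligands, receptors and targets, rows are the 3 cell classes, and the colour is the mean log2(RPM + 1) over E07, E08 and E09. BMP2, BMP6, RSPO3, PDGFRA, IL6R, IGF1 and ALDH1A1 are bright in the block row only, and PDGFA, IGF1R, FGF4 and GDF3 are dark there. These dark genes are not low in the block alone: PDGFA is also low in epiblast-like cells, and IGF1R, FGF4 and GDF3 in trophectoderm-like cells.

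Pluripotency genes of the epiblast were lower in the block, though not to 0 for all. Of 12 epiblast markers tested, 0 were higher and 9 lower, with a median of -1.81 against all other cells, -4.54 against epiblast-like and -0.04 against trophectoderm-like cells. NANOG medians were 5.61 RPM in the block, 1706 in epiblast-like and 9.94 in trophectoderm-like cells. SOX2 reached 10 RPM in 9 of 54 block and 34 of 34 epiblast-like cells. POU5F1 (OCT4) stayed detectable in every block cell, from 20.6 to 754 RPM with a median of 188, against 149 RPM in trophectoderm-like cells and 1103 in epiblast-like ones. Its difference was -0.93 ± 0.19 against all other cells and its mean log2 level 7.41 in the block, 10.18 in epiblast-like and 7.34 in trophectoderm-like cells. KLF17 and VENTX did not pass (0.07 ± 0.33 and -0.35 ± 0.32).

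Trophectoderm markers were lower in 12 of 16 tested cases, with 1 higher. Their median was -1.87 against all other cells, 0.22 against epiblast-like and -3.06 against trophectoderm-like cells. TFAP2C, an AP-2 factor shared by epiblast and trophectoderm in primates, had the lowest difference of all (-5.34 ± 0.23). Its medians were 6.00, 2.02 and 3.54 RPM in the block and 292, 276 and 278 RPM in the other cells, and it was at or above 10 RPM in 11 of 54 block and 96 of 96 other cells. GATA2 was lower by -3.75 ± 0.21, with medians of 4.48 RPM in the block and 788 in trophectoderm-like cells. GATA3 was less exclusive: 35 of 54 block cells reached 10 RPM, with a median of 27 RPM against 312 in trophectoderm-like cells. The keratin genes KRT18 (-2.68 ± 0.13) and KRT8 (-1.82 ± 0.15) were lower, and KRT18 was still at 108 RPM or more in every block cell. The member that was higher was SLC2A1, the glucose transporter GLUT1 (2.90 ± 0.11), with medians of 1769 RPM in the block, 301 in trophectoderm-like and 158 in epiblast-like cells.

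Among the 15 genes with the lowest differences, the proton pump subunits ATP6V1B1 and ATP6V0A4 (-4.39 ± 0.33 and -4.11 ± 0.30), the zinc transporter SLC30A2 (-3.89 ± 0.33), the peptide transporter SLC15A2 (-3.86 ± 0.30) and SLC44A2 (-3.76 ± 0.40) had mean log2 levels of 6.31 to 8.04 in trophectoderm-like cells. The side-chain cleavage enzyme CYP11A1 (-5.01 ± 0.29) and von Willebrand factor VWF (-3.85 ± 0.31) were also high in epiblast-like cells, at mean log2 levels of 6.72 and 6.56. The others were GPRC5A, ANXA8, C1H1orf21, WWC1, CDH3, NMRK2 and NFE2L3, from -5.00 to -3.84.

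Lists of markers of other cell types gave few genes to test. Of 13 extraembryonic mesenchyme markers, 4 were high enough to test, and COL1A2 (3.81 ± 0.69) and COL6A1 (1.98 ± 0.42) were higher than in the other cells as a whole. The median of the 4 was -0.05 against epiblast-like and 1.64 against trophectoderm-like cells. COL1A1 and COL1A2 counted as elevated in the epiblast-like cluster as well. COL3A1, LUM, DCN, POSTN and HAND2 had medians under 1 RPM on every day. The summed level of these markers ran from 12.0 to 1944 RPM in block cells. Of 5 gastrulation genes tested, GSC (3.11 ± 0.38), EOMES (2.49 ± 0.40) and SNAI1 were higher and CDX1 was lower, while T and MESP1 had medians under 1 RPM. SNAI1 was not called without E08 (1.24) or E09 (0.76), and CDX1 not without E08 (-0.68). The amnion markers ISL1 (2.47 ± 0.31) and BAMBI were higher and TFAP2A (-1.92 ± 0.30) lower. Of 6 germ cell markers tested, SOX17, PRDM1 (2.39 ± 0.34), KIT and DPPA3 were higher and TFAP2C and DDX4 lower. DPPA3 medians were 816 RPM in the block, 1081 in epiblast-like and 477 in trophectoderm-like cells, and NANOS3 had a median under 1 RPM on every day. The single blood marker high enough to test, TYROBP, did not pass, and the summed level of 11 blood markers was at most 42.5 RPM in a block cell.

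Genes of the secretory route were moderately higher. Of 15 tested, 9 were higher and 0 lower, with a median of 0.66. CREB3L2, a factor that raises secretory capacity, differed most (2.49 ± 0.21), and PDIA3 (1.21 ± 0.19) and HSPA5 (1.03 ± 0.19), a disulfide isomerase and the chaperone BiP, followed. DDIT3 and ATF4, genes of the response to stress of the endoplasmic reticulum, did not pass (0.34 ± 0.32 and -0.05 ± 0.15). Their RNA levels alone do not decide whether that response was active. Of 18 glycolysis genes, SLC2A1, ENO1 (0.76 ± 0.11), HK2 and TPI1 were higher, and HK1 (-1.51 ± 0.19), LDHB (-1.20 ± 0.12) and ALDOA were lower, with a median of -0.05. Of 19 nuclear genes of the respiratory chain, 0 were higher and 4 lower, the largest difference being that of UQCRQ (-0.50 ± 0.11). Over all genes 11.6% were higher and 11% lower, which also stands beside the glycolysis counts. COX4I1 was not called without E08 (-0.42) or E09 (-0.46), UQCRQ not without E08 (-0.47) and ATP5A1 not without E09 (-0.42).

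Of 16 cell cycle genes tested, 0 were higher and 5 lower, with a median of -0.37, beside 11% lower over all genes. TOP2A, a topoisomerase of dividing cells, differed by -1.41 ± 0.16, with medians of 90.2 RPM in the block, 633 in epiblast-like and 296 in trophectoderm-like cells. AURKA, a mitotic kinase, differed by -1.31 ± 0.20, while MKI67 and CCNB1 did not pass (-0.31 ± 0.21 and -0.28 ± 0.15). The replication genes MCM2 (-0.71 ± 0.16) and MCM5 (-0.85 ± 0.17) were not called without E09 (-0.61 and -0.81), and changed sign to 0.30 and 0.036 with 7 cells drawn for every unit. Among the 8 DNA methylation genes tested, TET1 (1.3 ± 0.15) and TET2 (0.64 ± 0.19) were called higher and DNMT3B (-0.71 ± 0.14) and TET3 (-1.73 ± 0.42) lower. TET2 was highest in trophectoderm-like cells: its medians were 193 RPM in the block, 343 there and 11.8 in epiblast-like cells, and the block median was below that of all other cells together (207). DNMT3B was not called without E09 (-0.55), nor TET3 without E07 (-1.11). Of 9 genes that cell dissociation can induce, EGR1 (2.81 ± 0.34) and ZFP36 (2.04 ± 0.31) were higher and 0 lower. Over all genes 11.6% were higher and 11% lower, which also stands beside the DNA methylation counts. EGR1 and ZFP36 also answer to growth factors, and their part in the other results was not tested.

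The named genes differed in how often they were seen at E06, in counts that mix all cell classes of that day. At E06, 9 of 43 cells reached 10 RPM for GATA4, 15 for PDGFRA, 7 for SOX17, 7 for APOA1, 2 for FOXA2, and 0 for BMP2 and RSPO3. GATA6 did in 41 of 43 cells, HNF4A in 42, IL6R in 25 and OTX2 in 21. The later days are shown by E14. Of the 62 cells of E14, 30 reached 10 RPM for GATA4, 18 for PDGFRA, 12 for BMP2, 6 for SOX17, 1 for APOA1 and 0 for HNF4A and MOGAT2. HNF4A did in 2 of 46 cells of E13, 3 of 36 of E16 and 2 of 53 of E17, with a highest value of 668 RPM. Cell classes of the later days were not set apart here either.

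Within the block, 8514 genes had a mean log2 level of at least 3 on some day. Of these, 157 stood at least 2 higher and 68 at least 2 lower at E09 than at E07, with a median change of 0.01. With 1 unit a day there is no test, and the E09 mean rests on 7 cells. Code MS03 holds 9 of 10 E07 and all 7 E09 block cells, so keeping to it nearly repeats the same comparison. The 16 changes named here then ran from 3.08 to 3.89 upward and from -4.68 to -2.82 downward. An effect of the code was not tested. The hedgehog ligand IHH had medians of 0, 13.3 and 127 RPM, and 2 of 10, 22 of 37 and 4 of 7 cells reached 10 RPM. Its mean log2 level went from 1.3 through 3.49 to 4.53, against a change of 0.12 in the other cells. ADAM19, a metalloprotease, had medians of 24.8, 57.2 and 349 RPM, and IL1B, an inflammatory cytokine, 23.3, 185 and 133 RPM. In trophectoderm-like cells the mean log2 levels of ADAM19 and IL1B also differed upward from E07 to E09, by 1.91 and 2.16, and in epiblast-like cells by -0.33 and -0.26. PKDCC and ANKRD1 were at most 2.55 and 0 RPM in the E07 cells and had medians of 16.8 and 36.9 RPM at E09. The change of DEFB1 rested on few cells: 3 of 7 cells of E09 reached 10 RPM, 1 of them 4910 RPM, and the median was 0.70. CDK14 and HSPA12A completed the 8 largest upward changes.

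The largest downward change was that of MUC15, a membrane mucin, whose medians were 32.2, 0 and 0 RPM. COL1A2, a chain of collagen I, had medians of 179, 53 and 17.5 RPM, and its mean log2 level went from 7.48 to 3.70. The COL1A2 change was 0.64 in the other cells, but -0.31 in epiblast-like and -0.025 in trophectoderm-like cells. The 0.64 therefore shows no rise within either cluster, and the mix of the clusters differs between days. CHEK2, a checkpoint kinase, was at 6.37 RPM or more in all E07 cells and had a median of 0 at E09. ADTRP medians were 49, 2.84 and 2.42 RPM, and the mean log2 difference of E09 from E07 was -1.59 in the other cells. ZMYND11, CCNB1IP1, WDR73 and LTBR made up the rest of the 8 largest downward changes.

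**Figure D4:**
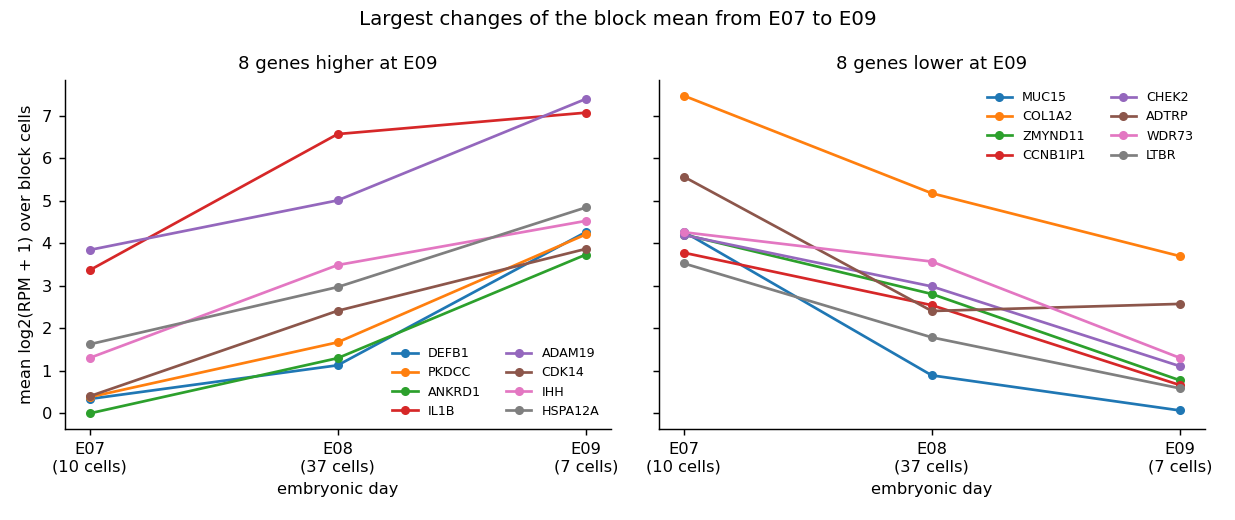
The horizontal axis is the embryonic day and the vertical axis the mean log2(RPM + 1) over the block cells of that day (10, 37 and 7 cells), for the 8 largest upward (left) and downward (right) changes from E07 to E09. The lines were chosen for their slope and have no error, since each day is 1 unit.

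Between the 37 block cells of E08, the SD of log2(RPM + 1) had a median of 0.99 over 5974 genes with a mean of at least 4. GATA4 was even between cells (SD 0.77) and so was NID2 (0.92), and APOA1 was uneven (2.10). The most uneven gene was ENPP1, an ectonucleotidase, with an SD of 3.15 and a range from 0 to 5294 RPM. ALDH1A1 (2.98) was under 10 RPM in 5 of the 37 cells and reached 1775 RPM, and the ligand NRG1 (2.96) was under 10 RPM in 6 and reached 1024 RPM. The peptide hormone ADM, IL1B (2.81) and COL1A2 (2.79) were of the same kind. RHOBTB3, HMGN5, PLCXD3, CLCA1, RBM24 and MAGED1 completed the 12 largest SDs, down to 2.71.

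A small branch of 7 block cells, 3 of E07, 3 of E08 and 1 of E09, separated from the other 47 when the tree was cut at 5 clusters. On the 500 most variable genes in place of 2000 the branch held 9 cells. It was found from expression, so its genes are a description. In these 7 cells APOA1 had a median of 139 RPM (7.27 to 825) against 3725 (944 to 12487) in the 47, and COL4A1 76.2 RPM (0.56 to 176) against 1307 (373 to 3356). Neither gene overlapped between the branches, nor did COL4A2 (median 18.3 RPM, at most 78.1, against 365, at least 113). SERPINH1 (539 against 1540) and BMP2 (58.8 against 547) were lower as medians, with overlapping ranges. The branch was cut on expression, and the share of all genes without overlap was not counted. The lineage factors overlapped: GATA4 was at 132 RPM or more in all 7 cells, and medians in the 7 and the 47 cells were 739 and 634 RPM for GATA6, 349 and 258 for PDGFRA, and 322 and 376 for SOX17. FOXA2 had medians of 43.4 and 155 RPM. POU5F1 was at a median of 350 RPM in the 7 cells against 181 in the 47, and TOP2A at 323 against 81.7. NANOG (10.4 against 5.05 RPM) and GATA3 (4.25 against 32.6) were low in both branches by the measure of their own lineages. Estimated reads had a median of 2497315 in the 7 cells, 1 of which was the shallowest of the block, and 1823354 in the 47.

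Relations between genes over cells were also taken without the branch. Over the 37 E08 cells, Pearson's r of APOA1 with COL4A1 was 0.76, and 0.22 without the 3 branch cells. These 3 cells are low in both genes and were set apart by expression, so a smaller r without them follows from that choice. The mean levels of the apolipoprotein and the basement membrane list had an r of 0.88, and 0.62 without them. COL4A1 and COL4A2 had an r of 0.94. These cells share their day, their depth range and possibly embryos, and r of the 2 list means with log2 reads was -0.06 and -0.04. The count of genes called higher in the block was 1321 without the branch and 1287 with it.

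**Figure D5:**
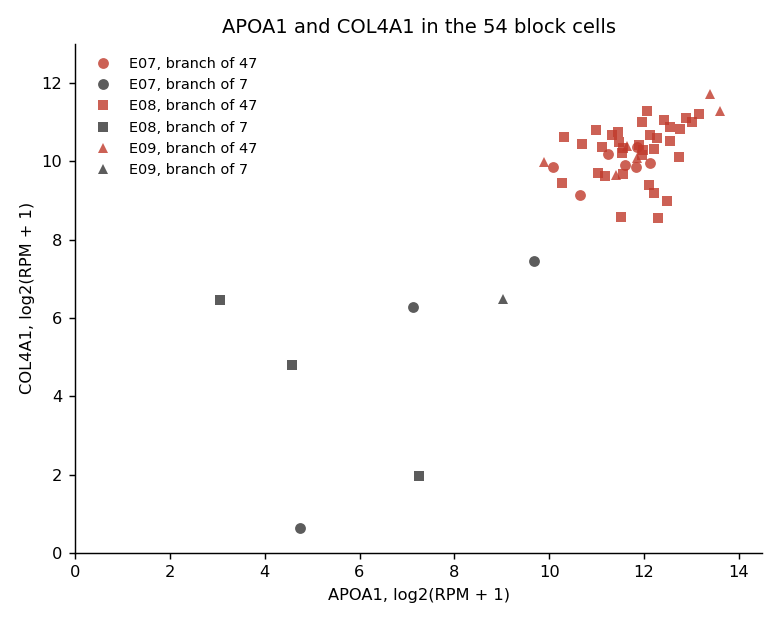
Each point is 1 of the 54 block cells, with APOA1 on the horizontal and COL4A1 on the vertical axis in log2(RPM + 1). Dark points are the branch of 7 cells, and symbols give the day. The 7 cells lie below the other 47 on both axes and spread widely.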

How the data were processed

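The table deposited by the authors holds RPM for each gene in each cell. The tools listed are TopHat 1.4.1, Cufflinks 2.2.0 and cutadapt 1.3, per the submitters' processing notes, which state no roles. Per the file headers, genes refer to macFas5, whereas those notes list only the mouse build mm10, also for monkey samples. Read assignment to genes is not stated in the labels or headers, and genes with near-identical copies (KRT8, KRT18, ENO1) are therefore uncertain. Of 29095 genes, 298 held no value and 28797 were used. Of 14758 LOC names, 3296 were given a symbol by gene ID, and genome positions were not used. Depth was estimated from the RPM worth of 1 read, taken as the most common value above 0.01 RPM in a cell. No cell was removed, and no doublet caller was run, since each sample is 1 cell. As a check, 0 block cells reached the other cluster's own 25th percentile for at least 3 of 6 trophectoderm or 5 of 10 epiblast markers.

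The labels name no embryos, so a unit was the mean of log2(RPM + 1) over the cells of a day and group. The 6 units were fitted with limma 3.58.1 in R 4.3.3 (day and block as terms, eBayes with trend), for genes with a mean of at least 1, with Benjamini-Hochberg adjustment over all tested genes and a two-sided threshold of 0.05. P-values measure only how alike a difference is over 3 days, which may be technical. On simulated data at these 11132 genes, 48% of genes changed by 1 and 100% of those changed by 2, 3 or 4 (log2) were called, and 0.0732% of unchanged ones. The simulated noise was independent between genes and units, with the SDs that the same model had estimated. These shares therefore check the fit and are not error rates for the real cells. Clusters came from a Ward tree on the 2000 most variable genes. A marker counted as elevated at 1 above the other cells with a mean of at least 3.

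The block, the markers and the lists were chosen with earlier results of these data known. Named genes were the 20 highest and 15 lowest called differences with the same sign on all 3 days, the 5 marker genes, the 4 largest tested differences of each list, the 8 largest rises and falls by day and the 12 largest SDs at E08, without LOC names. Other members of the lists, SERPINH1 and CDH2 as separating genes, and the genes of the E06 and E14 counts were named after their values were seen. Alternatives covered the pseudocount, filter, scaling, day term, cell numbers, title codes, equal weight of the epiblast-like and trophectoderm-like clusters, and leaving out a day. Results for some genes that these rules name are not reported here.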

Additional observations from a re-analysis of the deposited data

Results flagged for a closer look

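In 7 of 40 groups of block cells checked (named genes at E07 and at E09), the lowest cell lay further from the next than Dixon's 95% limit allows. That limit flags about 1 in 20 groups of normally distributed values, which values of single cells need not be. The genes were also chosen for being high in the block, so the count cannot be set against that rate. The groups share the same 10 and 7 cells, so they are not independent, and 4 of the 7 flags fell on cells of the branch of 7 cells described above (COL4A1 on both days, and CDH2 and BMP6 at E07). At E07 they were COL4A1 at 0.56 RPM (next cell 76.2), CDH2 at 82.3 (next 176), BMP6 at 35.1 (next 78.2) and MOGAT2 at 32.3 (next 142). At E09 they were SOX17 at 29.7 RPM (next 222), COL4A1 at 88.5 (next 808) and BMP6 at 4.84 (next 58.1).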

How the results depend on the processing

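The counts of 1287 higher and 1219 lower genes became 277 and 168 with no filter on low genes, of which 269 and 154 were shared, and 859 and 742 with 7 cells drawn for every unit. Leaving out a day gave 747 to 1375 higher and 628 to 1399 lower genes. Under the other alternatives the counts stayed within 1.5 times, from 1004 to 1434 and from 920 to 1377. The upper ends came from equal weight of the epiblast-like and trophectoderm-like clusters, whose mix otherwise differs between days. Of those genes, 1204 higher and 1065 lower were shared with the main fit. Leaving out the branch of 7 cells was an alternative chosen after seeing the data. With 7 cells a unit, MCM5 (0.036) and MCM2 (0.30) changed sign, and NANOG (-0.59) and GDF3 (-1.09) were no longer called. This was a single random draw without regard to the clusters, so it can change their shares among the other cells. The cause was not tested. COL1A2 (2.81) was not called on log2 of mean RPM. The median of the dissociation list was -0.22, and -0.17 to 0.18 with a day left out (0.053 without E08). Of the named genes' alternative values, 1347 kept their side of the threshold and direction, 74 lost and 11 gained a call, and 2 reversed. The read minimum of 500000 removed no cell. The planned edgeR and DESeq2 fits on reads recovered from RPM were not run, although in each cell at least 99.7% of values were whole within 0.1 read; the values were kept as RPM. No paired analysis was possible because the replicate numbers only count cells in order of deposition; the day, which block and other cells share, is a term of the fit, and without it 1004 and 920 genes were called. With 3 days and no named embryos, differences between embryos cannot be seen.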

Other observations

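Genes that mark the anterior visceral endoderm of the mouse were seen together in some block cells, chosen for this look after their values were known and given with no test. At 10 RPM or more, LEFTY1 was seen in 19 of 54 block cells, EOMES in 24, GSC in 26, OTX2 in 41, HHEX in 12, LHX1 in 7 and CER1 in 2. Of the 19 cells with LEFTY1, 17 also had EOMES, and all 7 cells with LHX1 had EOMES and OTX2, whereas 3 of them had GSC and 3 HHEX. OTX2 was in most block cells, so its overlaps are large for any gene. Of the 12 cells with HHEX, 10 had EOMES and 9 LEFTY1. Over the 37 block cells of E08, Pearson's r of EOMES was 0.78 with LEFTY1, 0.64 with HHEX and 0.26 with GSC. GSC had an r of 0.15 with HHEX, 0.099 with OTX2 and -0.067 with LHX1. LEFTY1 reached 2417 RPM in a block cell of E08, and CER1, which encodes a secreted inhibitor of NODAL and BMP, reached 483 RPM at E09 and was at most 3.05 RPM at E07 and E08.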
